A study of Mus musculus with 20 samples.

Results

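Metastases and primary bladder tumors of one mouse model were compared, in untreated animals, across all genes of a whole-transcript microarray. The samples were taken by their labels: 4 metastases and 7 bladder tumors, which make 11 of the 20 arrays of the study. All of these mice were FVB/N animals whose shared genotype includes Rb f/f, which Cre recombinase can delete, and p107-/-, a deletion of the gene of a relative of Rb, as labelled. Tumors had been started with an adenovirus coding for Cre, put into the bladder, and the 11 samples had received neither CM272, an inhibitor of G9a and DNA methyltransferases, nor cisplatin. Control bladders (n = 5) carried the same alleles, and the 3 treated bladders and 1 treated metastasis had received both drugs (CM272, 5 mg/kg daily over 30 days; cisplatin, 6 mg/kg weekly). The labels say neither which organ a metastasis was taken from, nor which cells took up the virus, nor whether each sample is a different animal. The p-values below therefore weigh differences against variation among the samples used in each test, some of which may be technical. The virus acts in whichever cells it enters, and a piece of a metastasis holds tumor cells together with cells of the organ it grew in.

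Urothelial cancer spreads as cells that leave the bladder wall, and primary tumors are sampled with urothelium, bladder muscle and connective tissue around them, whereas metastases are sampled with the tissue of another site and with recruited immune cells. Macrophages are known as a large part of the infiltrate in many metastases. A tissue-level comparison of this kind therefore reads tumor cells and their surroundings together, and in bulk samples fewer cells of a type cannot be told apart from less RNA per cell.

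The values are log2 expression values as deposited, so that a difference of 1 is 2-fold, and 30142 genes with 1 symbol each were measured. The 4 metastases were not alike. In metastasis 3 and 4, and in bladder tumor 3, 4 and 5, the deviations of the genes from their mean over the 20 arrays correlated with those of no other array above 0.2, across genes. They are called near-mean arrays here, a name that stands for this low correlation only, and 3 of the 5 control bladders are of the same kind. The SD of the deviations was 0.30 to 0.32 in these metastases and tumors. In the other metastases and tumors it ran from 0.31 in metastasis 2 to 0.53 in bladder tumor 1. The main results are given with and without the near-mean arrays. Leaving them out sets metastasis 1 and 2 against bladder tumor 1, 2, 6 and 7. Metastasis 1 and metastasis 2 correlated with each other at r = 0.22 across genes, and metastasis 1 with bladder tumor 6 at r = 0.46. Array medians ran from 5.07 to 5.42 in the tumors and from 5.08 to 5.27 in the metastases. The mean of 1773 chemosensory receptor genes, which bladder and tumors are not known to use and which serve as a measure of background, was 4.85 ± 0.12 in metastasis (SD, n = 4), 4.93 ± 0.18 in bladder tumor (n = 7) and 4.89 ± 0.04 in control bladder (n = 5). Metastases and tumors did not differ in it beyond their spread (exact two-sided permutation test, p = 0.445). Without the near-mean arrays it was 4.78 ± 0.16 (n = 2) against 4.95 ± 0.26 (n = 4).

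Between the 4 metastases and 7 primary tumors, no gene passed the threshold used (0 of 30142, 0.0% called). That threshold was an adjusted p under 0.05 in limma, with Benjamini-Hochberg adjustment over all genes. The spread in limma was estimated from 19 arrays, these 11 together with the control and treated bladders. At an unadjusted limma p under 0.05 there were 1810 genes, 6.0% of those tested, where 1507 would fall by the threshold alone; 758 had higher means in metastasis (2.51%) and 1052 lower ones (3.49%). Of all genes, 43.8% had a higher mean in metastasis and 56.2% a lower one, and the median difference was -0.03. In 47 genes all 4 metastases lay above all 7 tumors (0.156%), and in 108 genes all 4 lay below (0.358%).

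The 2 genes nearest to the threshold differed in the same direction in every metastasis. Hnrnph2 codes for a nuclear protein that binds pre-mRNA and takes part in splicing. It read 6.33, 6.08, 5.94 and 6.01 in metastasis 1 to 4, and from 5.07 through a median of 5.35 to 5.57 in the tumors. The groups did not overlap, and the near-mean metastases also lay above every tumor. The difference was 0.74 (SE 0.11), 1.67-fold, with an adjusted p of 0.0591 in limma. Defb5, a beta-defensin and so a gene of the antimicrobial peptide family, read 6.04, 5.85, 5.82 and 5.70 in the metastases and from 6.40 through 7.15 to 7.27 in the tumors. Here too the groups did not overlap, with every metastasis lower, by -1.15 (SE 0.18; limma, adjusted p = 0.0591). For each of these genes the exact two-sided permutation test over the 330 splits gave p = 0.00303, the smallest it can give, and 0.0106 after adjustment over the 7 values tested this way; these genes were picked for their small p, so that test is no separate evidence. Both genes passed in limma when array weights were used (adjusted p = 0.0233 for Hnrnph2 and 0.00842 for Defb5), when dim genes were left out (0.0381 for each) and without bladder tumor 6 (0.0268 and 0.0111). They did not pass in a fit of the 2 groups alone (adjusted p = 0.568 for each in limma), without metastasis 1 (0.364 and 0.304), after quantile normalization (0.169 and 0.144) or without the near-mean arrays (0.436 and 0.727). With the replicate number as a block the adjusted p was 0.153 for each. Over all alternatives run, it ranged from 0.00604 to 0.865 for Hnrnph2 and from 0.00842 to 0.727 for Defb5. Control bladders read 5.62 ± 0.15 for Hnrnph2 and 6.55 ± 0.33 for Defb5 (SD, n = 5), between the group means of metastasis and tumor in both cases.

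Among the other genes with the smallest p, higher means were seen for S1pr5, a receptor for sphingosine-1-phosphate on lymphocytes and glia, Fbxo4, a substrate receptor of a ubiquitin ligase, Cep76, a centriole protein, and Rhou, a small GTPase. S1pr5 read 4.85, 4.83, 5.23 and 5.34 in the metastases and at most 4.63 in the tumors, a difference of 0.61 (limma, adjusted p = 0.412), which was 0.30 without the near-mean arrays and 0.94 in those arrays alone. Fbxo4 read 5.95 to 6.24 against at most 5.71, a difference of 0.63. Rhou differed by 0.85 but overlapped, because metastasis 4 read 5.44, below the highest tumor at 5.60. Lower means were seen for Tram1l1, a protein of the endoplasmic reticulum membrane, at 3.43 to 3.98 against 3.99 to 4.62 (-0.61 over all arrays, -0.35 without the near-mean arrays), for Sost, which codes for the Wnt antagonist sclerostin, at 3.91 to 4.20 against 4.49 to 5.12, and for Shroom1 and Lrrc51. None of these passed in limma over all arrays, and the group means of S1pr5, Tram1l1, Sost and Lrrc51 lay below every array median.

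**Figure D1:**
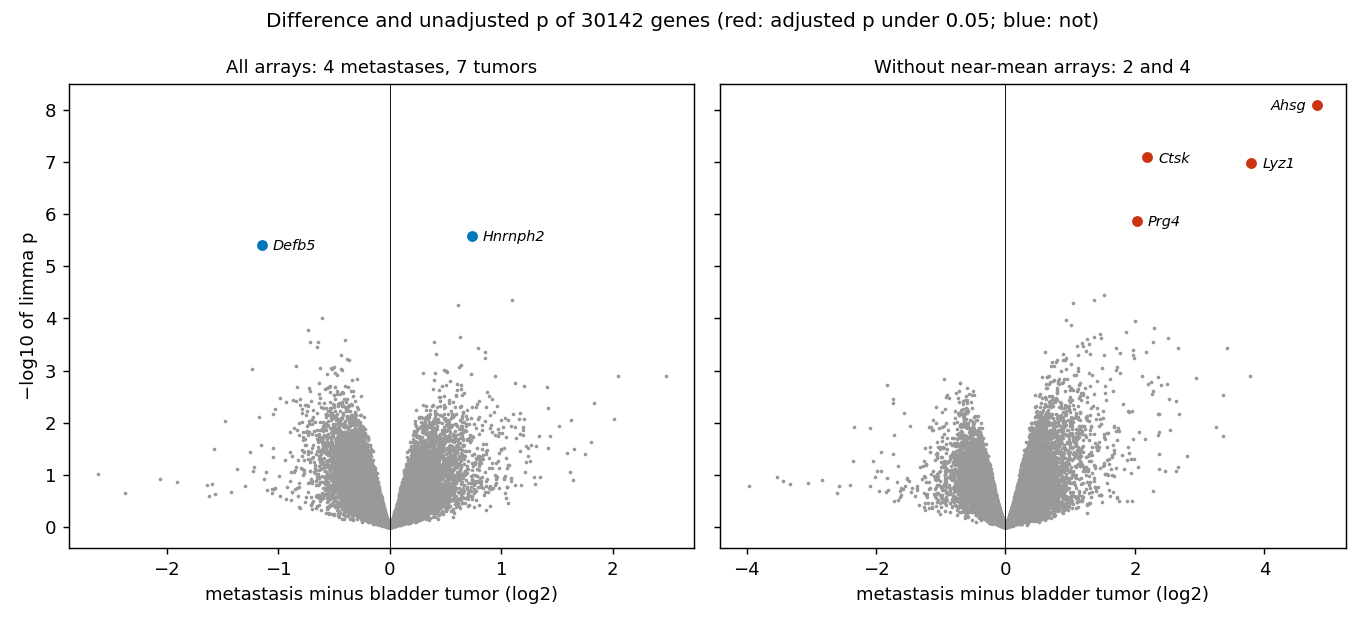
Each point is 1 of 30142 genes, with the difference metastasis minus bladder tumor on the log2 scale across and the negative log10 of the unadjusted limma p upward. Over all arrays (left) Hnrnph2 and Defb5 stand nearest to the threshold and none passed; without the near-mean arrays (right) Ahsg, Lyz1, Ctsk and Prg4 passed, all with higher values in metastasis.

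Without the near-mean arrays, 4 genes passed in limma, 0.0133% of the 30142 tested, all of them higher in metastasis 1 and 2 than in the 4 tumors, and 0 (0.0%) were lower. An unadjusted limma p under 0.05 was reached by 1645 genes (5.46%), 1033 of them higher (3.43%) and 612 lower (2.03%). Of all genes, 38.4% had a higher mean in this fit and 61.6% a lower one, with a median difference of -0.07. They were Ahsg, which codes for fetuin-A, a plasma glycoprotein made mainly by the liver that keeps calcium phosphate from precipitating; Lyz1, a lysozyme known from Paneth cells; Ctsk, cathepsin K, the collagen-degrading protease of osteoclasts; and Prg4, lubricin, a lubricating glycoprotein of joints and serous surfaces. Ahsg read 10.58 in metastasis 1 and 10.39 in metastasis 2, against 5.92, 6.15, 5.16 and 5.46 in bladder tumor 1, 2, 6 and 7. Its level was 4.81 higher (SE 0.27), 28.1-fold, with an adjusted p of 0.000243 in limma. The near-mean metastases read 6.63 and 6.66, within the range of the near-mean tumors (6.43 to 6.77).

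Lyz1 read 11.03 and 10.61 in the same metastases and 6.45, 7.06, 7.14 and 7.43 in the same tumors. The difference of 3.80 (SE 0.28) is 13.9-fold (limma, adjusted p = 0.00104). Ctsk read 7.64 and 7.94 against 5.47, 5.62, 5.81 and 5.51, a difference of 2.19 (SE 0.16), 4.57-fold, at the same adjusted p of 0.00104 in limma. Prg4 read 7.59 and 7.82 against 5.25, 5.66, 5.91 and 5.90, a difference of 2.03 (SE 0.20), 4.07-fold (limma, adjusted p = 0.0101). For all 4 genes metastasis 1 and 2 lay above every one of the 7 tumors, and the gap between the metastases was small beside the gap to the tumors.

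In the near-mean arrays taken alone these differences were -0.00 for Ahsg, -0.02 for Ctsk, -0.06 for Prg4 and 0.22 for Lyz1. Over all 11 arrays they were therefore smaller and did not pass: 2.48 for Ahsg, 2.04 for Lyz1, 1.12 for Ctsk and 1.0 for Prg4, each with an adjusted p of 0.825 in limma. With 2 metastases against 4 tumors, 15 splits exist and the exact permutation test cannot go below 0.0667, the value it gave for each of the 4 genes. The count of 4 rests on few samples: without metastasis 1, 13 genes passed, and without metastasis 2, 41 passed, with the lone remaining metastasis assumed to vary like the other groups. Ahsg, Lyz1, Ctsk and Prg4 passed in each of these fits. Without bladder tumor 6 there were 6 calls, the added ones being Cd68 and Cxcr4, and without bladder tumor 2 there were 5, the added one being Wt1. The spread in the fit without the near-mean arrays was estimated from 11 arrays, control and treated bladders included. A fit of the metastases and tumors alone, with no other group, kept only Ahsg.

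No gene was called lower in this fit. The smallest p among lower genes belonged to Ripply1, Ank3, which codes for the membrane scaffold ankyrin-G, Rgs17, a regulator of G protein signalling, Fbxl7, a ubiquitin ligase subunit, and Defb5. Ank3 read 5.0 and 5.12 in metastasis 1 and 2 against 5.47 to 6.13 in the 4 tumors, a difference of -0.76 (SE 0.19; limma, adjusted p = 0.715). The differences were -0.50 for Ripply1, -0.56 for Rgs17, -0.63 for Fbxl7 and -0.92 for Defb5, and in each of these genes both metastases lay below the 4 tumors.

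The single treated metastasis was in none of these fits. It read 9.50 for Ahsg, 9.63 for Lyz1 and 7.25 for Prg4, each above all 7 tumors, but 5.88 for Ctsk, inside the range of the tumors. Control bladders read 6.10 ± 0.69 for Ahsg, 7.41 ± 0.62 for Lyz1, 5.73 ± 0.31 for Ctsk and 5.46 ± 0.53 for Prg4 (SD, n = 5), close to the tumors.

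**Figure D2:**
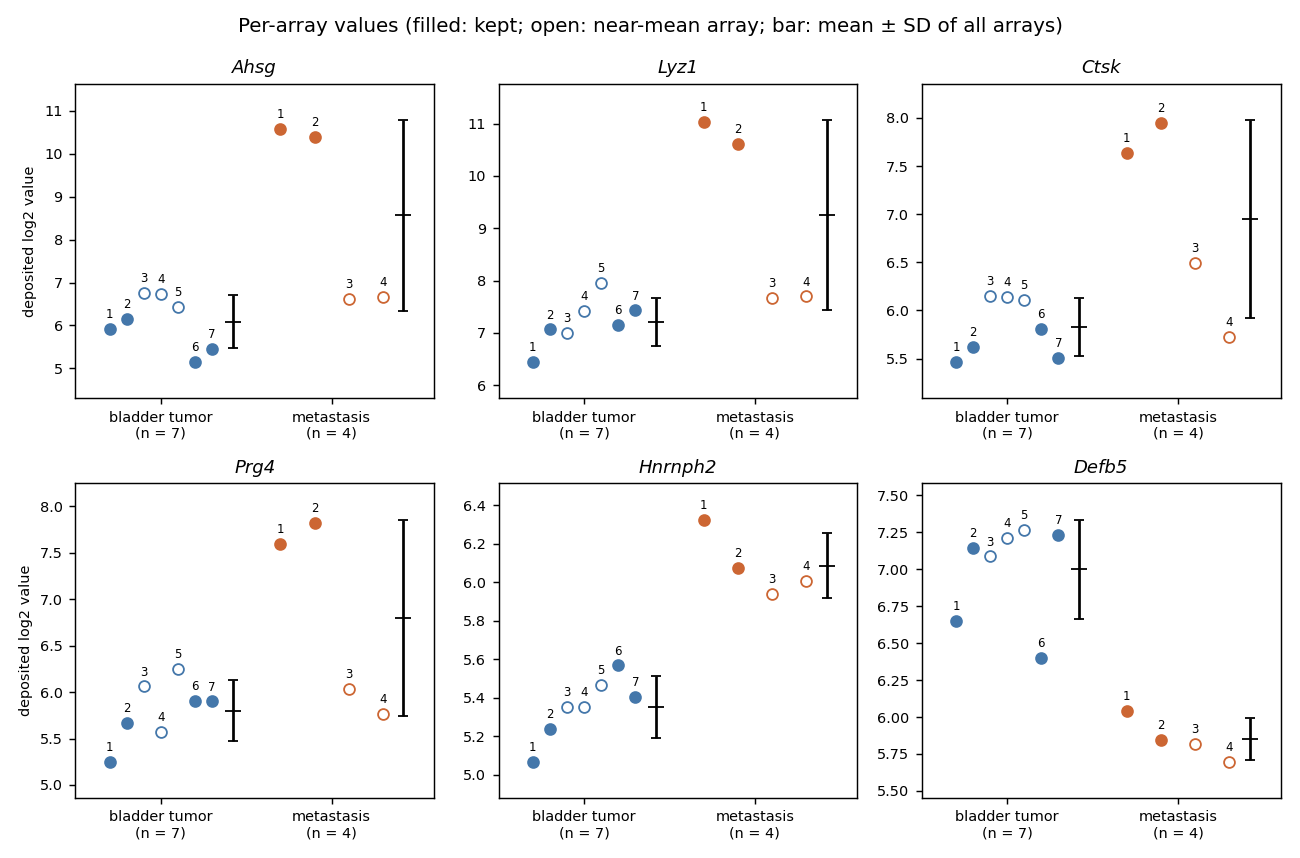
Deposited log2 values of 6 genes by array, numbered as in the labels, with filled points for arrays kept and open points for near-mean arrays; bars give the mean ± SD of all arrays of a group (n = 7 and n = 4). Ahsg, Lyz1, Ctsk and Prg4 are high in metastasis 1 and 2 alone, while Hnrnph2 and Defb5 separate all 4 metastases from all 7 tumors.

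Ahsg, Ctsk and Lyz1 were high in the same arrays, so the windows around their starts are shown, with Lyz2, the close relative and neighbour of Lyz1, beside them. They were searched for motifs of factor families known from myeloid and liver cells. Each window holds 250 bases before and 50 after the start in RefSeq, on the build GRCm38.p6: chr16:22891765-22892064 (plus strand) for Ahsg, chr3:95498960-95499259 (plus) for Ctsk, chr10:117292819-117293118 (minus) for Lyz1 and chr10:117282223-117282522 (minus) for Lyz2. Capitals mark matches, on either strand, to AGGAAG, a sequence of the kind bound by ETS factors such as PU.1, and to TTNNGNAA, a C/EBP-type site; the matches can overlap.
Ahsg: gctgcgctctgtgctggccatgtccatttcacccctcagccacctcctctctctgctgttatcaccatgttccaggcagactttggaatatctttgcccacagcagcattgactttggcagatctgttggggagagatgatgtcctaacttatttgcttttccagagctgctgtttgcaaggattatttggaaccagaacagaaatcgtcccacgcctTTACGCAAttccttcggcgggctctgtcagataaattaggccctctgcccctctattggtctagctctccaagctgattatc
Ctsk: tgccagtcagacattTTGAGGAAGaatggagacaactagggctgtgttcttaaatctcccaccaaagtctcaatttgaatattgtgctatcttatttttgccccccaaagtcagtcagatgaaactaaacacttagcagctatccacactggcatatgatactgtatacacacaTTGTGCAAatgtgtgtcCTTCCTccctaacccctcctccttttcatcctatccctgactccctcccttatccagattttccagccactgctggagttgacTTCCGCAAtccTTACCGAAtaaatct
Lyz1: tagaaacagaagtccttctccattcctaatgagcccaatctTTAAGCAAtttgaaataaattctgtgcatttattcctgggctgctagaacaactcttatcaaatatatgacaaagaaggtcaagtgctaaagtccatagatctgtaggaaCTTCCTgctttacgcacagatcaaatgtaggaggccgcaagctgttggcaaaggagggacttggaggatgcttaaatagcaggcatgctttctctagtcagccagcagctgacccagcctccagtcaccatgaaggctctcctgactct
Lyz2: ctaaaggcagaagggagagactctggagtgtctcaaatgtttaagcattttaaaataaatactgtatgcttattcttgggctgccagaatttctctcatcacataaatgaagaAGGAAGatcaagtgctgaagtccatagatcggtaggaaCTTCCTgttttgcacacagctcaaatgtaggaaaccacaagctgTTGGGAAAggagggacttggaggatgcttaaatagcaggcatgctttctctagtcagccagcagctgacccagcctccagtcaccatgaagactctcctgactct
A C/EBP-type match was found in each of the 4 windows and 4 such matches in that of Ctsk, and 40.7% of 27025 promoters hold at least 1. ETS-type matches numbered 2 in Ctsk, 1 in Lyz1, 2 in Lyz2 and 0 in Ahsg, and 35.1% of all promoters hold 1 or more. Neither TGANTCA, the AP-1 site (7.93% of promoters), nor TATAAA (14.2%) was found in any of the 4, which says only that these letters are not in these windows. The windows of Lyz1 and Lyz2 were the same at 201 of 300 positions without gaps (67.0%). These genes are close in sequence, and whether their probes read both was not tested, so the values of Lyz1 and Lyz2 are uncertain in how they divide.

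Macrophage genes were the list, among the 47, with the most members in which metastasis 1 and 2 both lay above the 4 tumors. By share the shorter osteoclast list led, with 8 of 11. Of 22 genes for macrophages and dendritic cells measured, 18 had a higher mean in metastasis over all arrays, with a median difference of 0.43 against -0.03 over all genes, and 5 had an unadjusted limma p under 0.05; none passed after adjustment. Without the near-mean arrays 20 of 22 were higher, with a median of 0.94, 11 had an unadjusted p under 0.05, and only Lyz1 passed. Over all genes, 43.8% had higher means with all arrays and 38.4% without the near-mean arrays. Higher means with an unadjusted limma p under 0.05 made up 2.51% and 3.43%. These shares stand beside the counts of the other higher lists too. In 9 of the 22, metastasis 1 and 2 both lay above all 4 tumors, which held for 4.77% of all genes. By array, the list median stood 1.23 above the tumor mean in metastasis 1, 0.52 in metastasis 2, -0.03 in metastasis 3 and -0.06 in metastasis 4, and the highest tumor was bladder tumor 6 at 0.37.

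Lyz2, the lysozyme of myeloid cells, read 12.75 and 12.61 in metastasis 1 and 2, and from 6.87 through 9.36 to 10.63 in the 7 tumors, with 9.27 and 9.39 in metastasis 3 and 4. Cd68, a lysosomal protein of macrophages, read 8.02 and 8.14 against 5.72 to 7.03. Ctss, the cathepsin of antigen-presenting cells, read 8.17 and 7.97 against 5.48 to 6.95. The complement gene C1qb, made by tissue macrophages, read 10.53 in metastasis 1 and 8.17 in metastasis 2 against 4.89 to 7.66. Metastasis 1 and 2 were thus above every tumor for each of these 4 genes. Other macrophage genes were high in metastasis 1 more than in metastasis 2: Mrc1, the mannose receptor, read 9.15 and 7.93, Marco, a scavenger receptor, 7.45 and 6.08, and Cd14, a co-receptor for endotoxin, 8.41 and 7.26. In metastasis 2 these 3 lay within the range of the 7 tumors. Gpnmb, a glycoprotein of lipid-laden macrophages and osteoclasts, went the other way, at 5.53 in metastasis 1 and 8.73 in metastasis 2. C1qc, Cd163 and the dendritic cell genes Clec9a and Xcr1 differed by no more than 0.11 over all arrays.

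Osteoclast genes, several of which macrophages also express, were likewise highest in metastasis 1 and 2. Of 11 measured, 10 had a higher mean over all arrays (median 0.26, 3 with an unadjusted limma p under 0.05, none called), and all 11 without the near-mean arrays (median 0.50, 6 with an unadjusted p under 0.05, Ctsk called). Metastasis 1 and 2 lay above all 4 tumors in 8 of the 11, against 4.77% of all genes. Acp5, the tartrate-resistant acid phosphatase, read 6.24 and 6.38 against 5.20 to 5.60 in the 7 tumors, and Atp6v0d2, a subunit of the proton pump, 5.52 and 5.97 against 4.64 to 5.22. Calcr, the calcitonin receptor, a defining osteoclast gene, read 5.11 and 5.16 against 4.64 to 5.21, and so lay within the tumors' range. Bone and cartilage genes as a list were not higher: 6 of 14 had a higher mean, the median was -0.01, and Prg4 was the 1 member called without the near-mean arrays.

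Matrix proteases and their inhibitors were mixed, with 8 of 20 higher and a median of -0.12, which turned to 0.10 without bladder tumor 6. Of the list, 3 proteases of the family known from macrophages and invading tumors had an unadjusted limma p under 0.05 with higher means. Mmp12, macrophage elastase, read 6.17 and 5.87 in metastasis 1 and 2 against 4.95 to 5.43 in the 7 tumors. Mmp9, a gelatinase, read 6.75 and 6.04 against 4.69 to 5.46, and Mmp11 5.30 and 4.99 against 4.55 to 4.69. Mmp7, matrilysin, read 4.58 and 5.00, with tumors from 4.61 to 7.04, so that metastasis 1 lay just below them and metastasis 2 within them. None of these passed after adjustment in either fit.

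Plasma protein genes divided the metastases. Of 20 hepatocyte genes measured, 18 had a higher mean in metastasis over all arrays (median 0.26, 4 with an unadjusted limma p under 0.05, none called) and 18 without the near-mean arrays (median 0.49, 8 with an unadjusted p under 0.05, Ahsg called). By array, however, the list median was 0.86 in metastasis 2, -0.22 in metastasis 1, -0.03 in metastasis 3 and 0.22 in metastasis 4. Alb, serum albumin, read 9.53 in metastasis 2 and 5.06, 5.80 and 5.57 in metastasis 1, 3 and 4, against 5.06 to 5.82 in the tumors. The fibrinogen chain genes followed: Fgg read 10.49 in metastasis 2 and 4.40 in metastasis 1, Fgb 9.75 and 4.65, and Fga 7.51 and 4.64. Hpx, the haem carrier hemopexin, read 8.31 and 4.69. Albumin and fibrinogen RNA, which hepatocytes make in large amounts, thus stood at or just below the lowest tumor in metastasis 1 and above all tumors in metastasis 2 alone.

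Other members of the same list were high in both. Trf, the iron carrier transferrin, read 11.92 in metastasis 1 and 11.35 in metastasis 2, against 7.05 through 8.62 to 9.52 in the tumors, a difference of 1.83 over all arrays (SE 0.56; limma, adjusted p = 0.825). Hp, the haemoglobin carrier haptoglobin, read 8.37 and 9.23 against 6.62 to 7.37. Cyp2e1, an oxidase of ethanol and small solvents, was highest in metastasis 1 at 8.81, with 6.26 in metastasis 2, against 4.61 to 6.64. Ahsg, called above, was high in both metastases, as were Trf and Hp. Apob, Apoa2, Apoc3 and Cyp3a11, also typical of hepatocytes, stayed at or below 5.60 in every metastasis. Without metastasis 2 the median of the list turned to -0.05. The organ each metastasis came from is not in the labels, and the part of surrounding tissue in these values was not tested.

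Mesothelial genes, which mark the lining of the body cavities, had higher means in metastasis for all 7 members measured, with a median difference of 0.42 over all arrays and 0.48 without the near-mean arrays; 2 had an unadjusted limma p under 0.05 in each fit and none passed. The list median was 1.63 in metastasis 2 and between 0.12 and 0.16 in the other 3 metastases. Wt1, a transcription factor of mesothelium, kidney and gonads, read 6.95 and 7.19 in metastasis 1 and 2 against 4.49 through 5.31 to 6.24 in the tumors, with metastasis 3 and 4 inside that range. Lrrn4, a leucine-rich repeat protein of mesothelium, read 8.36 in metastasis 2 and 6.75 in metastasis 1, while bladder tumor 2 reached 7.41. Upk3b, a uroplakin of mesothelium as well as urothelium, read 7.90 in metastasis 2 and 5.71 in metastasis 1. Msln, mesothelin itself, read 5.45 in metastasis 2 and at most 4.91 in the tumors. Metastasis 2 was thus the highest array for Wt1, Lrrn4, Upk3b and Msln, and bladder tumor 2, at a list median of 0.80, the highest tumor.

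**Figure D3:**
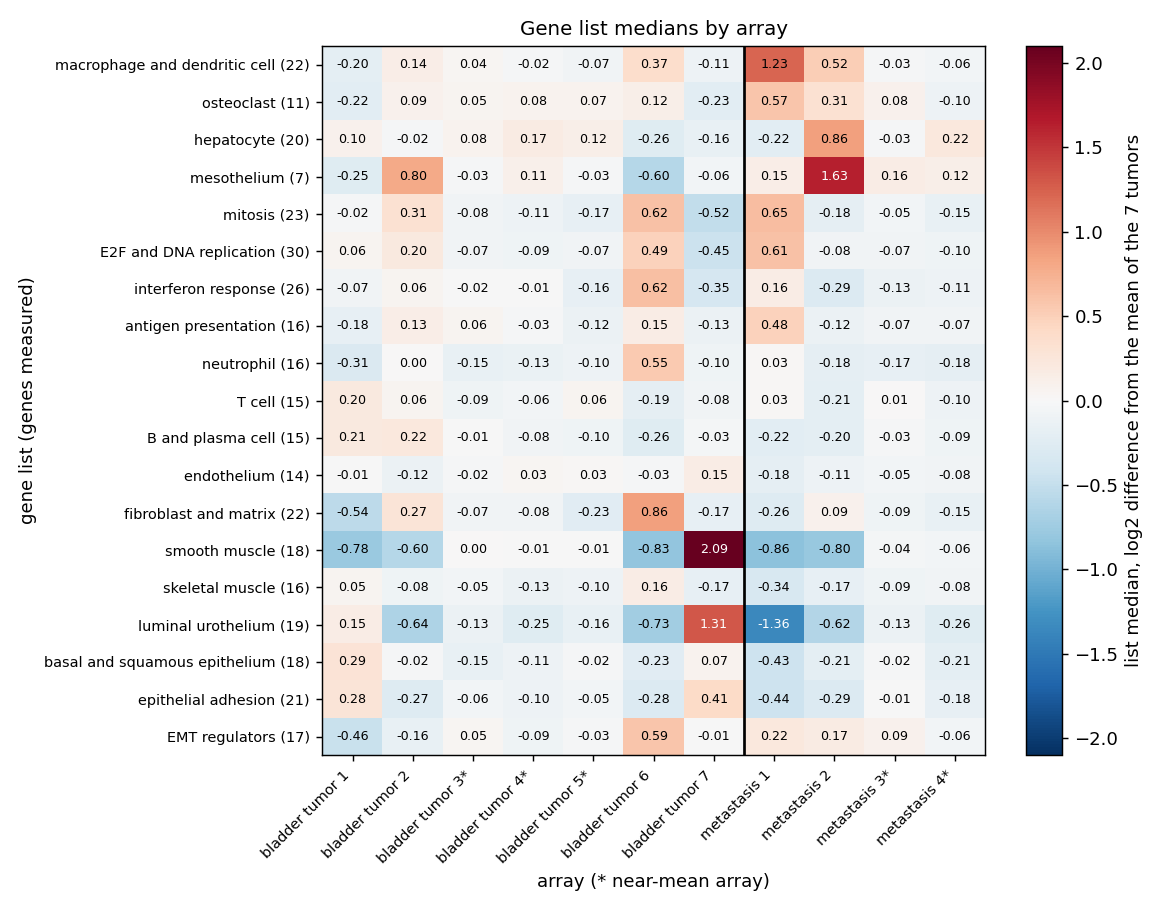
Each cell gives the median, over the members of a gene list (number measured in brackets), of the log2 difference of 1 array from the mean of the 7 tumors; red is higher, blue lower, and an asterisk marks near-mean arrays. Macrophage genes are at 1.23 and 0.52 in metastasis 1 and 2, mesothelial genes at 1.63 in metastasis 2 and smooth muscle genes at 2.09 in bladder tumor 7, while the near-mean arrays stay between -0.26 and 0.22 in the 19 lists shown.

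Luminal urothelial genes had lower means in metastasis for most members, but the arrays of both groups overlapped. Of 19 luminal genes measured, 17 had lower means over all arrays (median -0.50, 3 with an unadjusted limma p under 0.05, none called) and 17 without the near-mean arrays (median -0.86, 2 with an unadjusted p under 0.05, none called). Over all genes, 56.2% and 61.6% had lower means in these fits. Lower means with an unadjusted limma p under 0.05 made up 3.49% and 2.03%. These shares stand beside the counts of the other lower lists too. The list median was -1.36 in metastasis 1, -0.62 in metastasis 2, -0.13 in metastasis 3 and -0.26 in metastasis 4. The tumors also differed among themselves: bladder tumor 7 stood at 1.31, and bladder tumor 2 and 6 at -0.64 and -0.73. Metastasis 1 was lower than any tumor, and metastasis 2 as low as bladder tumor 2.

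The uroplakins, which build the plaques of the urothelial surface, show this. Upk1a read 5.31 and 5.84 in metastasis 1 and 2, and 7.57, 5.84, 8.09, 8.01, 8.41, 5.37 and 13.93 in bladder tumor 1 to 7. Upk3a read 4.55 and 4.79, with tumors from 4.55 through 7.20 to 12.21. Bladder tumor 2 and 6 read 4.97 and 4.55 for Upk3a and no more than 5.84 for Upk1a, so these defining genes of the labelled tissue were low in 2 of the 7 primary tumors as well. Upk1b was an exception, at 8.52 in metastasis 1 but 11.59 in metastasis 2, against 6.59 to 13.44. The SEs were large: the Upk1a difference was -1.57 (SE 1.26) over all arrays and -2.60 (SE 2.0) without the near-mean arrays. Foxa1, Elf3 and Fgfr3, 2 transcription factors and a receptor of luminal tumors, had lower means by -0.35, -0.51 and -0.22.

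Genes of epithelial junctions had lower means in metastasis for nearly all members. Of 21 measured, 20 had lower means in both fits, with a median of -0.22 over all arrays and -0.46 without the near-mean arrays; 4 and 6 had an unadjusted limma p under 0.05, and none passed. In 12 of the 21, metastasis 1 and 2 both lay below all 4 tumors, which held for 7.73% of all genes. Cldn4, a claudin of tight junctions, read 4.65 and 4.55 against 5.62 through 6.00 to 8.10 in the 7 tumors, and 6.04 and 5.59 in metastasis 3 and 4. Its difference was -1.47 over all arrays (SE 0.51; limma, adjusted p = 0.825). Cdh1, E-cadherin, read 5.05 and 5.22 against 5.94 to 8.09. Epcam, an adhesion molecule of carcinomas, read 5.48, 5.33, 5.64 and 5.55 against 5.52 to 6.17, and Grhl2, a transcription factor that maintains epithelial junctions, 5.24 and 5.61 against 5.87 to 7.01. Metastasis 1 and 2 lay below every tumor for each of these 4 genes. For Cldn4 both read below the chemosensory mean of their array, 4.67 in metastasis 1 and 4.89 in metastasis 2. Cdh1, Epcam and Grhl2 read above that mean in both, and the part of background in these values was not tested. Tjp1, the scaffold ZO-1, was the only member not lower, with a difference of 0.04. By array the list median was -0.44 in metastasis 1 and -0.29 in metastasis 2, the latter close to bladder tumor 6 at -0.28 and bladder tumor 2 at -0.27. In the near-mean arrays alone the median difference was 0.02.

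Basal and squamous genes followed with smaller differences: 15 of 18 had lower means over all arrays (median -0.15, 3 with an unadjusted limma p under 0.05) and all 18 without the near-mean arrays (median -0.31, 2 with an unadjusted p under 0.05), none called in either fit. Krt5, the keratin of basal cells, read 4.93 and 5.31 in metastasis 1 and 2, below all 7 tumors (5.44 through 6.89 to 9.31). Trp63, the master regulator of basal epithelium, read 4.96 and 4.97 against 5.17 to 6.54, and Sfn, the epithelial 14-3-3 protein, 4.74 and 4.76 against 4.96 to 6.03. Ivl, the cornified envelope protein involucrin, read 4.66 and 4.77 against 4.70 to 13.18, with bladder tumor 2 and 6 at 4.97 and 4.70. For Krt5, Trp63 and Sfn metastasis 1 and 2 lay below every tumor, and for Ivl they overlapped with bladder tumor 6. The values of Trp63 and Sfn there lay below the array medians, 5.08 in metastasis 1 and 5.18 in metastasis 2. The list median was 0.29 in bladder tumor 1, -0.23 in bladder tumor 6, -0.43 in metastasis 1 and -0.21 in metastasis 2. The chemosensory mean was 5.26, 4.65, 4.67 and 4.89 in these arrays, and the part of background in the list was not tested.

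Regulators of the epithelial-mesenchymal transition, the switch by which epithelial cells become motile, were mixed. Of 17, 11 were higher over all arrays (median 0.04) and 9 without the near-mean arrays (median 0.05). At an unadjusted limma p under 0.05, 3 were higher and 0 lower over all arrays, and none was called. Without the near-mean arrays 4 were higher and 1 lower at that threshold, and none was called. Metastasis 1 and 2 both lay above all 4 tumors in 3 of the 17 (4.77% of all genes), and below them in 1 (7.73%). Cdh2, N-cadherin, read 7.46 and 7.16 in metastasis 1 and 2 against 5.46 through 6.00 to 6.35 in the tumors, a difference of 0.79 over all arrays (SE 0.24; limma, adjusted p = 0.825) and 1.46 without the near-mean arrays (SE 0.25; limma, adjusted p = 0.436). Tgfb2, a ligand that drives the transition, read 7.13 and 6.35 against 5.28 to 6.01. Cdh11, a mesenchymal cadherin, read 9.39 in metastasis 2 and 7.95 in metastasis 1, against 6.58 to 8.07. The transcription factors Snai1, Snai2, Zeb1, Twist1 and Prrx1 differed by 0.04 to -0.27, and each was highest in bladder tumor 6.

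**Figure D4:**
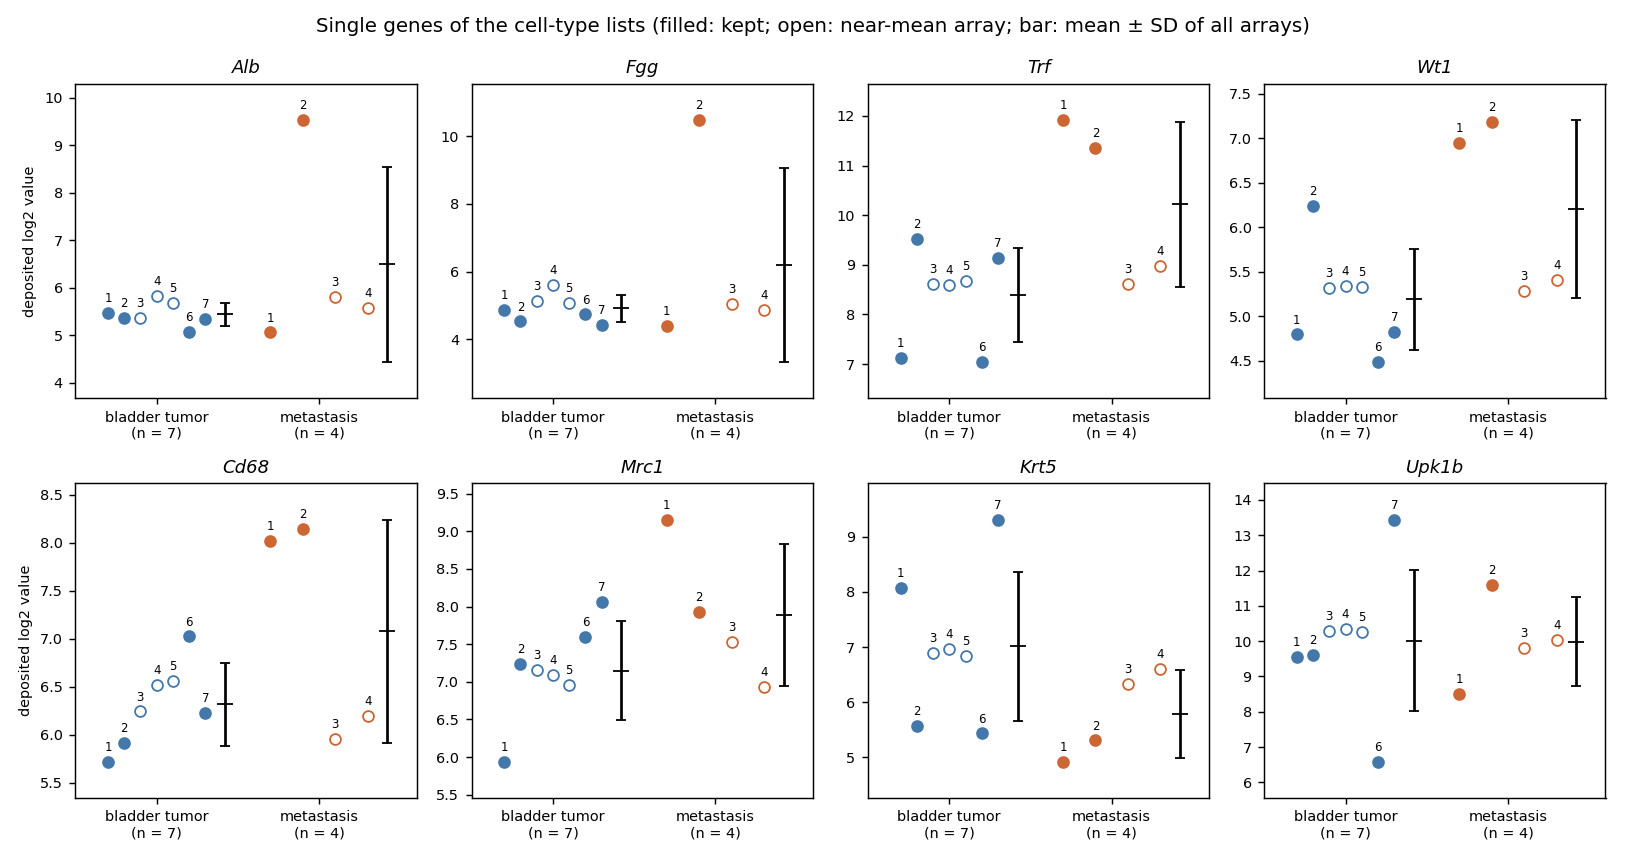
Deposited log2 values by array of 8 genes of the cell-type lists, with filled points for arrays kept, open points for near-mean arrays and bars for the mean ± SD of all arrays of a group (n = 7 and n = 4). Alb and Fgg are high in metastasis 2 alone, Trf, Wt1 and Cd68 in metastasis 1 and 2, and Krt5 is lower in both than in every tumor; Upk1b is not.

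Smooth muscle genes, which mark the bladder wall in a tumor sample, had lower means in metastasis for all 18 members in both fits (median -0.50 and -1.0), but none had an unadjusted limma p under 0.05. The tumors differed widely: bladder tumor 7 stood at 2.09 and bladder tumor 1, 2 and 6 at -0.78, -0.60 and -0.83, beside -0.86 and -0.80 in metastasis 1 and 2. Myh11, smooth muscle myosin, read 11.32 in bladder tumor 7 and from 5.03 to 6.99 in the other 6, against 5.34, 5.29, 6.96 and 6.95 in the metastases. Tagln, transgelin, read 11.17 in bladder tumor 7, 5.71 to 7.48 in the other tumors and 5.53 to 7.26 in the metastases. The metastases lay within the range of the primary tumors for Myh11, and for Tagln only metastasis 2 lay below it. Skeletal muscle genes had lower means for 14 of 16 members (median -0.15); Tnni2, a fast troponin, read 4.96, 5.01, 5.1 and 5.08 against 5.19 to 5.88, and none passed in limma.

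Fibroblast and matrix genes differed little as a group, with 7 of 22 higher and a median of -0.11, and the highest array was bladder tumor 6 at 0.86. Basement membrane genes (9 of 15 higher, median 0.01), integrin and motility genes (10 of 23, -0.04), endothelial genes (3 of 14, -0.09) and lymphatic endothelial genes (2 of 6, -0.07) also stayed near the median of all genes. Adipocyte genes were higher for 10 of 11 (median 0.12), with 0.62 in metastasis 1 and -0.26 in metastasis 2; Lpl, lipoprotein lipase, which macrophages also make, read 6.75 and 6.53 against 4.87 to 6.34.

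Cell cycle genes were high in 1 metastasis. Of 23 mitosis genes 16 had higher means in metastasis, with a median of 0.10, and of 30 genes of E2F and DNA replication 22 did, with a median of 0.09; none had an unadjusted limma p under 0.05 in either fit. The list medians were 0.65 and 0.61 in metastasis 1, and between -0.18 and -0.05 in the other 3 metastases. Bladder tumor 6 was about as high, at 0.62 and 0.49, and bladder tumor 7 lowest, at -0.52 and -0.45. Mki67, the proliferation antigen Ki-67, read 9.31 in metastasis 1, 6.73 in metastasis 2 and from 5.63 through 6.81 to 8.46 in the tumors. Pcna, the clamp of DNA polymerase, read 10.12 in metastasis 1 and 7.88 in metastasis 2 against 7.29 to 9.10. Metastasis 1 was the highest array for both genes, and without it the 2 list medians turned to -0.18 and -0.09.

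The lymphocyte lists did not follow the macrophage list. T cell genes were higher for 5 of 15 (median -0.03), cytotoxic and NK genes for 4 of 15 (-0.13) and B and plasma cell genes for 1 of 15 (-0.14), none of them called. For B and plasma cell genes the list median was 0.21 in bladder tumor 1, -0.26 in bladder tumor 6 and -0.22 in metastasis 1. T cell genes stood at 0.20, -0.19 and 0.03 in these arrays. The chemosensory mean was 5.26, 4.65 and 4.67 there, and the part of background in the lists was not tested. Antigen receptor segments were left out of the named genes. In the fit without the near-mean arrays and metastasis 1, an immunoglobulin kappa variable segment was 5.56 higher in metastasis 2 than in the tumors. The B and plasma cell list stood at -0.20 in metastasis 2. The value of the segment rests on that array alone, and the part of plasma cells in it was not tested. Neutrophil genes were higher for 2 of 16, with a median of -0.16, and the highest array was bladder tumor 6 at 0.55. S100a8, an alarmin of neutrophils, read 7.76, 7.03, 6.53 and 5.81 in the metastases, inside the tumors' range of 4.07 to 11.96. Clec4d, a myeloid lectin receptor on the same list that macrophages also carry, was an exception, at 7.69 and 8.14 in metastasis 1 and 2 against 5.12 to 7.02 (difference 1.20 over all arrays, SE 0.40; limma, adjusted p = 0.825). Mast cell genes were higher for 5 of 8 (median 0.05).

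Interferon response genes had higher means for 8 of 26 (median -0.10), antigen presentation genes for 10 of 16 (0.09), immune checkpoint genes for 10 of 14 (0.18) and chemokine and cytokine genes for 10 of 26 (-0.09). Antigen presentation stood at 0.48 in metastasis 1 and between -0.12 and -0.07 in the other metastases. Cxcl13, a chemokine that attracts B cells, read 12.69 in metastasis 1 and 9.24 in metastasis 2, against 6.25 through 7.97 to 10.95 in the tumors, so that only metastasis 1 stood above them. Hypoxia and glycolysis genes (11 of 17 higher, median 0.07), unfolded protein response genes (10 of 14, 0.08), nuclear genes of oxidative phosphorylation (14 of 19, 0.14), immediate early genes (3 of 13, -0.02) and receptor kinases with their ligands (8 of 19, -0.05) had no member called in either fit. Without metastasis 1 the medians of the hypoxia and unfolded protein response lists turned to -0.08 and -0.10.

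Markers of other organs were mostly at or below the tumors. Lung epithelial genes were higher for 5 of 16 (median -0.11), kidney genes for 1 of 12 (-0.10), intestinal genes for 2 of 10 (-0.11), male accessory gland genes for 2 of 10 (-0.14), neuroendocrine genes for 6 of 12 (-0.01) and Schwann cell genes for 3 of 7 (-0.02). Germline genes silenced by methylation were higher for 7 of 17 (-0.02), ribosomal protein genes for 2 of 8 (-0.04) and erythroid genes for 0 of 3 (-0.11). In several of these lists bladder tumor 1 was high, and bladder tumor 6 and metastasis 1 were low. The same held for the chemosensory mean, at 5.26, 4.65 and 4.67 in these arrays. Kidney genes stood at 0.28, -0.23 and -0.20 there, and germline genes at 0.34, -0.22 and -0.18. Ribosomal protein genes went the other way, at -0.63, 0.56 and 0.08. The part of background in these values was not tested.

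The genes that stood out in each metastasis were described one sample at a time, with no test. Among 16875 named genes, 105 lay more than 1 above the highest of the other 10 arrays in metastasis 1, 31 in metastasis 2, and 0 in metastasis 3 and in metastasis 4. Bladder tumor 6 and 7 had 127 and 130 such genes. Those furthest above in metastasis 1 were Gstm2, a glutathione transferase, at 12.00 against 5.05 to 7.70 in the tumors; Tmem255a, a membrane protein, at 9.49; Gatm, the first enzyme of creatine synthesis, at 9.94; and the cystatin genes Cstdc1 at 8.84 and Cst12 at 8.83. In metastasis 2 they were Fgg, Fgb, Alb and Hpx, with the values above, and Orm1, an acute-phase plasma protein, at 9.70 against 5.43 to 6.11. In metastasis 3 the largest gap was 0.75, and Snhg18 at 8.20, Tnp2, a sperm chromatin protein, at 5.23, Rtl3, Avpr1a, a vasopressin receptor, and Platr10 led. In metastasis 4 it was 0.99, and Papolb, a poly(A) polymerase of the testis, at 5.67, Nxph2, Zfp488, Zfp991 and Map10 led. The near-mean metastases thus had no gene more than 1 above the other arrays, as had bladder tumor 3 and 5.

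Rb1 and Rbl1, which codes for p107, were analysed here; no source used here says whether the measured parts lie in the deleted sequence, so these values check nothing about the genotype. Rb1 read 6.30, 6.01, 6.04 and 5.83 in the metastases and 5.55 to 6.48 in the tumors. Rbl1 read 8.28 in metastasis 1, above the tumors' 6.15 to 7.09, and 6.37, 6.59 and 6.72 in the others; Rbl1 is itself an E2F target. Ehmt2, which codes for G9a, read 6.71 to 7.05 against 6.58 to 6.96, and Dnmt1 8.32, 7.13, 7.36 and 7.18 against 6.75 to 8.47. The differences were 0.06 for Rb1, 0.37 for Rbl1, 0.06 for Ehmt2 and -0.00 for Dnmt1, none of them called by limma. Of the G9a and DNA methyltransferase network, 5 of 11 members had higher means (median -0.00).

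Sex-linked genes check whether samples are alike. Xist, the RNA of the inactive X chromosome, read 4.47 to 6.09 in all 11 arrays. The Y-linked genes Eif2s3y, Uty and Kdm5d read 5.73 to 6.65, 5.72 to 6.75 and 5.47 to 5.79 in the metastases, and 4.90, 5.01 and 4.97 in bladder tumor 6, the lowest array for each.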

How the data were processed

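RNA came from an extraction kit meant for fixed tissue, and 12 ng was labelled for whole-transcript Affymetrix arrays, per the labels. The deposited values are log2 expression values; RMA and Affymetrix Expression Console are named per the submitters' processing notes, and no source used here gives their versions or any adjustment for batch. RMA is meant to equalise arrays, so overall differences in RNA amount cannot be read from these values. The deposited arrays were not fully equal, with medians from 5.07 in bladder tumor 6 to 5.42 in bladder tumor 1. Without the near-mean arrays the median difference over all genes was -0.074. It was -0.010 after quantile normalization and 0.017 with arrays centred on their medians. In 284 of 65956 rows values exceed 16, above what a 16-bit scanner can give, and the reason is unknown. The number of arrays limits the precision.

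Of the rows, 30604 had 1 gene symbol in the platform annotation, 2146 had several and were left out, and 33206 were unlisted. RefSeq (GRCm38.p6) matched 22818 by gene ID and updated 827 symbols. Where a gene had more than 1 row (355 genes), the brightest was kept.

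limma 3.58.1 (R 4.3.3; lmFit, eBayes) fitted group means to the 19 arrays of the 4 replicated groups, and again to the 11 of them that are not near-mean. Its two-sided p-values were adjusted over all genes by Benjamini-Hochberg. On simulated data with 30142 genes, 77% of genes changed by 1 (log2) and 97% of those changed by 2 were recovered over all arrays. Without the near-mean arrays these shares were 36% and 79%. Recovery of differences held by metastasis 1 and 2 alone was not tested. In the measured values over all arrays, Ahsg at 2.48 and Lyz1 at 2.04 each had an adjusted p of 0.825 in limma.

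The genes and the 47 lists were chosen with earlier results of these data known. The rule for named genes left out predicted, small RNA, chemosensory and antigen receptor segment genes. It took the called genes with the 10 largest differences per fit and direction (or the 5 smallest p where none was called), up to 3 members per list with the largest difference, the 5 genes furthest above the other arrays in each metastasis, and the engineered, Ehmt2, Dnmt1 and sex-linked genes. Further list members were named after their values were seen, to show how a list varied. Some items of the genotype and gene lists are not reported here, and the promoter of Prg4 was not used here. Alternatives included array weights, other normalizations and filters, each array left out in turn and the replicate number as a block.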

Additional observations from a re-analysis of the deposited data

Results flagged for a closer look

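In 138 groups of values of 4 or 7 arrays, 1 array lay further from the rest than Dixon's 95% critical value allows in 20 cases, and chance alone gives about 1 in 20 groups. List values are medians of log2 differences from the mean of the 7 tumors.

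Metastasis 1 accounted for 7 of these. It stood above the other 3 metastases for the engineered loci at 0.99, a median of only 2 measured genes. It also did so for mitosis at 0.65, E2F and DNA replication at 0.61 and antigen presentation at 0.48. The same held for chemokines and inflammatory cytokines at 0.13 and neutrophil genes at 0.027. Metastasis 1 stood below the other 3 for kidney genes at -0.20, and its chemosensory mean of 4.67 was also the lowest of the 4 metastases. Metastasis 2 stood above the others for mesothelial genes at 1.63, where the other 3 lay between 0.12 and 0.16. In metastasis 4, Cep76 read 5.17, below the 5.47 to 5.51 of the others.

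Among the tumors, bladder tumor 6 was high for hypoxia and glycolysis at 0.94, the unfolded protein response at 0.73, interferon response at 0.62, neutrophil genes at 0.55, matrix proteases at 0.55 and chemokines at 0.15, and low for sex-linked genes at -0.81. Bladder tumor 7 was high for smooth muscle at 2.09, luminal urothelium at 1.31 and mast cells at 0.58. Bladder tumor 1 was high for bone and cartilage at 0.20, and its chemosensory mean of 5.26 was also the highest of the 7 tumors.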

How the results depend on the processing

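Over all arrays, the count of 0 became 2 (Hnrnph2 and Defb5) with array weights, with dim genes left out, and with predicted, small RNA and chemosensory genes left out. Leaving out each metastasis and tumor in turn gave 0 to 2 (control and treated arrays were kept), the 2 without bladder tumor 6. The count became 1 (Hnrnph2) with the chemosensory mean as a covariate and 4 without the near-mean arrays. In that second fit, the count of 4 became 1 for the 2 groups alone, 2 under a 2-fold threshold, and 4 to 41 with arrays left out in turn (13 without metastasis 1, 41 without metastasis 2). Quantile normalization gave 3 (Prg4 lost). The replicate block gave 0 calls over all arrays and 3 without the near-mean arrays (Prg4 lost). Same-numbered samples correlated at -0.51, 0.04, -0.05 and -0.08, and 0 of 4 correlated best with its own number. This cannot decide whether the numbers pair the samples. Numbers 3 and 4 join near-mean arrays, which by their definition correlate with no other array. The near-mean set as a covariate, the near-mean arrays alone and the chemosensory covariate were chosen after seeing the data.

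Some differences that were not called over all arrays changed sign. In the near-mean arrays alone, Ahsg was at -0.0010, Ctsk at -0.022, Prg4 at -0.064, Rb1 at -0.028 and Ank3 at 0.047. Over all arrays, Rb1 was at -0.13 for the mean of its rows and -0.047 with the chemosensory covariate, Ehmt2 at -0.034 after quantile normalization, and Dnmt1 at 0.047 after centring, 0.091 without the near-mean arrays and 0.0043 with that set as a covariate. Without the near-mean arrays, Rb1 was at -0.012 for the mean of its rows, -0.00778 with the replicate block and -0.059 with the chemosensory covariate. Ehmt2 was at -0.084 after quantile normalization, and Dnmt1 at -0.0047 with array weights, -0.18 after quantile normalization and -0.23 with the covariate. With arrays left out in turn, the ranges over all arrays were -0.029 to 0.14 for Rb1, -0.064 to 0.57 for Rbl1, -0.019 to 0.095 for Ehmt2 and -0.27 to 0.16 for Dnmt1. Without the near-mean arrays they were -0.0045 to 0.31, -0.28 to 1.64, -0.018 to 0.24 and -0.50 to 0.68 in the same order.

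Of the 47 list medians, 29 changed sign under at least 1 of 24 settings; the macrophage and osteoclast medians did so only in the near-mean arrays alone, at -0.012 and -0.073, and antigen presentation was at -0.066 without metastasis 1.

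The cause of each change was not tested. Groups are small, the organs and animals are not in the labels, and why 5 of 11 arrays correlate with no other is unknown. Signal over background could not be computed from these values.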

Other observations

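Further gene groups were looked at after the values were seen, so their members were picked with the result in view and no test applies to them.

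Macrophages resident in the peritoneal cavity are known for a gene set of their own, and Prg4 and Lyz1 are among its members. Of 17 such genes measured, 16 had higher means in metastasis (median 0.42 over all arrays and 0.75 without the near-mean arrays), and in 10 of them metastasis 1 and 2 lay above all 4 tumors, which held for 4.77% of all genes. The list median was 1.02 in metastasis 1, 0.25 in metastasis 2, 0.16 in metastasis 3 and -0.00 in metastasis 4. Vsig4, a complement receptor of resident macrophages, read 8.29 and 7.30 in metastasis 1 and 2 against 4.41 to 6.62 in the 7 tumors. Cd36, a fatty acid and lipoprotein receptor, read 9.24 in metastasis 1 and 6.48 in metastasis 2 against 5.72 to 6.72. Gata6, the transcription factor that defines these cells and that mesothelium also expresses, read 7.04 in metastasis 1 and 9.37 in metastasis 2 against 5.47 to 7.85. Timd4, a receptor for dying cells, read 6.13 in metastasis 1 and 4.66 in metastasis 2 against 4.54 to 5.02.

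Several genes that stood out in metastasis 1 are known from Sertoli cells, the supporting cells of the testis. Of 20 such genes measured, the list median was 1.15 in metastasis 1, -0.07 in metastasis 2, 0.05 in metastasis 3 and 0.11 in metastasis 4, and between -0.23 and 0.14 in the tumors. Cst12 and Cst9, cystatins of these cells, read 8.83 and 6.45 in metastasis 1 against at most 6.15 and 4.69 in the tumors. Defb19, a defensin, read 6.84 against at most 5.04, Clu, the chaperone clusterin, 9.2 against at most 6.81, and Mro 6.90 against at most 5.42. Cldn11, the claudin of the barrier these cells form, read 6.19 against at most 5.24. Amh at 4.10 and Fshr at 5.22, which also define them, lay within the tumors' ranges. A list of 10 Leydig and germ cell genes stood at -0.12 in metastasis 1. The labels name no organ, and the part of any surrounding tissue was not tested.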
